A study of Homo sapiens with 8 samples.

Results

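The response to METTL14 knockdown was compared between 2 human leukaemia cell lines, NB4 and MM6 (MonoMac 6), gene by gene. NB4 comes from a promyelocytic leukaemia with the PML-RARA fusion and MM6 from a monocytic leukaemia, although both are labelled acute monocytic leukemia. The 4 groups, of 2 libraries each, were NB4 and MM6 with the METTL14 hairpin shM14-#2 (shM14 below) and NB4 and MM6 with the non-specific hairpin shNS. All cells, controls included, received a lentiviral pLKO.1 hairpin and 0.5 µg/mL puromycin for 2 passages, and poly(A) RNA was read from 100 ng of total RNA in single reads of 50 bp. The labels name 1 METTL14 hairpin and do not say that replicates were separate cultures, so effects of METTL14 and of that hairpin alone cannot be told apart and p-values cover only the spread between these libraries.

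The genes described are those with a mean RPKM (reads per kilobase of gene model, scaled to the size of the library) of at least 1 in at least 1 group of each line, so that a gene silent in a line is left out. They number 10737 of 16726 genes listed. Each gene's change was shM14 minus shNS on log2(RPKM + 1), and its difference was the MM6 change minus the NB4 change, so a positive difference means a higher change in MM6. The genes were chosen by their mean RPKM alone, which set a floor on the level and none on the difference. The pattern itself had been seen in earlier work on these values. At the floor, CBWD6 was just inside, with its NB4 mean of 1.00015 RPKM with shM14, and PRR7-AS1 just outside, with 0.999218. Of the genes described, 10231 passed the floor in both groups of both lines and 506 passed it through only 1 group of a line, so that their groups in that line had to be unequal at the floor. Of the named genes that passed the test below, these were LSP1 and CEBPE in MM6, MARCO and APOE in NB4, and IKZF2 and CXCL16 in both lines.

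The enzyme METTL3 and its partner METTL14 together methylate adenosines within messenger RNA, giving N6-methyladenosine (m6A). METTL3 carries the catalytic site and METTL14 helps to hold the RNA. Reader proteins of the mark influence the splicing, translation and decay of many messages, and in myeloid leukaemia cells the writers are known for keeping cells in an immature, dividing state. A message can therefore gain or lose RNA when METTL14 is reduced, and the lines start from different levels of most lineage genes.

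METTL14 itself was at 14.1 and 12.5 RPKM in NB4 with shNS and at 8.35 and 8.35 with shM14. In MM6 it was at 12.5 and 13.4 with shNS and 6.54 and 6.55 with shM14. The hairpin groups did not overlap in either line, and the change was -0.61 in NB4 and -0.88 in MM6. The difference of -0.28 (95% interval -0.56 to 0.01) did not pass the threshold (limma adjusted p = 0.27). None of the 24 genes of m6A writers, erasers and readers passed it by limma or by voom, none had an unadjusted p under 0.05, and their median difference was -0.09.

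Depth was 23272126 to 28814911 recovered reads per library over 16185 to 16403 genes with a read. The lines differed in spread: the SD of the difference between replicates over tested genes was 0.13 to 0.15 in NB4 and 0.34 to 0.37 in MM6 (log2 scale). In MM6, 55 genes differed by over 1.5 log2 between the replicates in the same direction under both hairpins, 54 of them lower in replicate 2, against 1 gene in NB4. The immediate early factor FOS, for example, was at 671 and 161 RPKM in MM6 with shNS and at 555 and 177 with shM14, high in both replicate 1 libraries. Against lineage markers, MPO, a granule peroxidase, was at 2400.0 and 2490.0 RPKM in NB4 and 69.6 and 103 in MM6 with shNS, while the monocyte lysozyme LYZ was at 19.8 and 21.4 in NB4 and 9206 and 5836 in MM6. The 8 monocyte markers summed to 49.7 to 51.5 RPKM in NB4 and to 6012 to 9417 in MM6 with shNS. With shM14 they summed to 137.3 to 137.4 in NB4 and 8371 to 14584 in MM6. The 7 promyelocyte markers summed to 2597 to 2699 RPKM in NB4 and to 4424 to 4629 in MM6 with shNS, and single markers went both ways, MPO being higher in NB4 and ELANE, a granule protease, higher in MM6 (0.0462 and 6.83 RPKM in NB4 and 1599 and 1709 in MM6 with shNS). Of other cell types, the 1 measured T cell marker, CD3D, was at 46.9 and 44.95 RPKM in NB4 with shNS and near 0 in MM6. Of eosinophil and mast cell markers, PRG2 was at 326 and 314 RPKM in NB4 and TPSAB1 at 57.8 and 47.3 in MM6, both with shNS. The 1 measured megakaryocyte marker, ITGA2B, was at 5.83 and 6.34 RPKM in NB4 with shNS. B cell markers (3 of 4 measured) summed to at most 2.98 RPKM in any library. Erythroid markers (2 of 5 measured) and fibroblast markers (1 of 4 measured) each summed to at most 0.652. Since these are bulk values, fewer cells of a type and less RNA per cell cannot be told apart.

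Of the 10737 genes, 224 passed the test of the difference, 114 with a higher and 110 with a lower change in MM6 (limma, Benjamini-Hochberg adjusted p under 0.05). That is 2.09%, beside a background of 2.92% over the 12804 tested genes (1.53% higher and 1.39% lower). The median size of the difference was 0.90 among these 224 genes and 0.18 over all genes described, the smallest was 0.55, and 83 were at least 1. Of the 224, 31 came from the 506 genes that passed the floor through 1 group. Across genes the changes of the lines were correlated (Pearson r = 0.49, Spearman rho = 0.42, n = 10737 genes that share libraries and are not independent). Leaving out a library leaves a group of 1, so such fits are given here by the size of the difference. It ran from 2.86 to 2.99 for LSP1, 1.79 to 1.89 for SEMA4A, 1.64 to 2.31 for OAS3 and -2.08 to -1.73 for ICAM1. Most of the calls were lost without any 1 NB4 library, and calls were also lost without any 1 MM6 library.

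**Figure D1:**
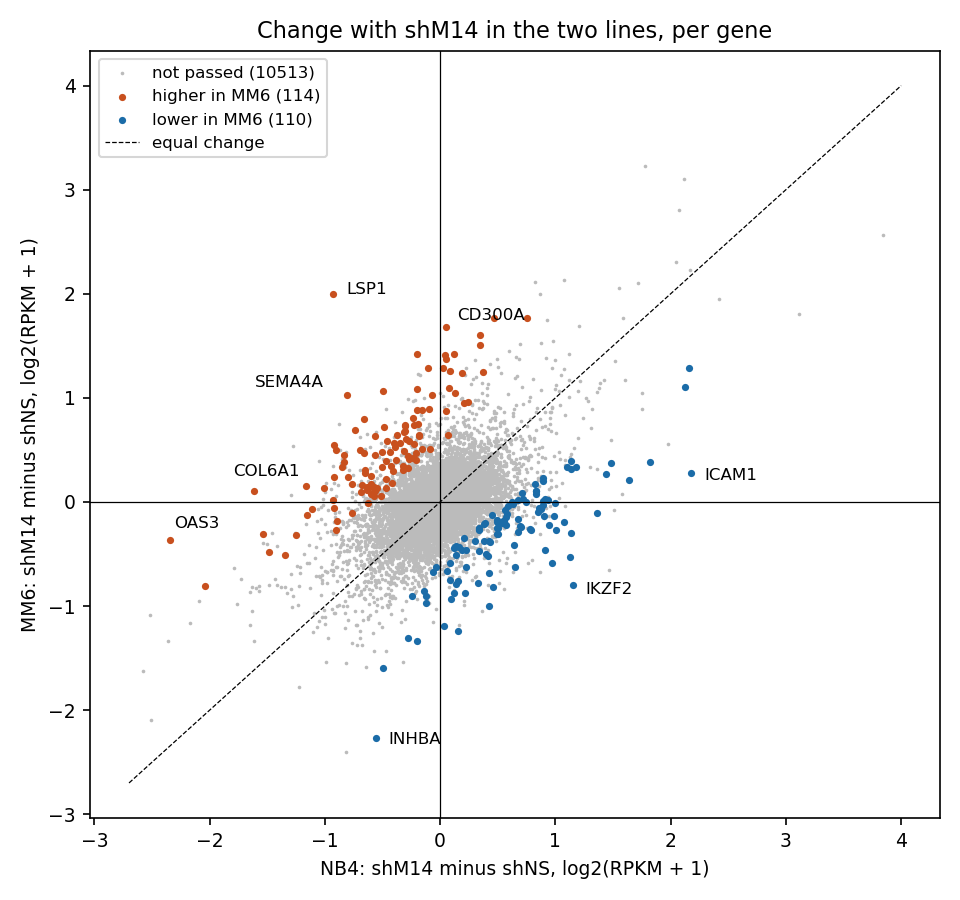
Change with shM14 in NB4 (x axis) and MM6 (y axis), log2(RPKM + 1), for each of 10737 genes. Coloured points are the 114 genes with a higher and the 110 with a lower change in MM6, and the dashed line marks equal change. LSP1 and SEMA4A lie in the upper left quadrant, ICAM1 and IKZF2 to the right below the line.

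Opposite directions were the usual form of the difference. By the group means, 83 of the 224 genes were lower in NB4 and higher in MM6 with shM14, and 77 were higher in NB4 and lower in MM6, together 71.4%. Of the 224, 134 had opposite changes and hairpin groups that overlapped in neither line, against 1111 of 12804 tested genes (8.68%). The test selects for opposite directions, so this share is a description of the calls. The other 64 moved the same way in both lines by their means, 36 with the larger change in NB4 and 28 in MM6. Only 4 genes described passed the test of the change within MM6 alone and 5013 within NB4 alone (background 0.0757% of tested genes in MM6, 0.0504% higher and 0.0252% lower with shM14, and 47.4% in NB4, 22.1% higher and 25.2% lower). The SD between replicates was 0.34 to 0.37 in MM6 and 0.13 to 0.15 in NB4, so these counts do not compare the size of the response. METTL14 itself did not pass within MM6 (limma adjusted p = 0.088) and passed within NB4 (limma adjusted p = 0.0024).

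Among the genes lower in NB4 and higher in MM6, LSP1, an actin-binding protein of leukocytes, had the largest difference. LSP1 was at 6.20 and 6.30 RPKM in NB4 with shNS and at 2.98 and 2.66 with shM14. In MM6 it was at 0.295 and 0.226 with shNS and at 3.81 and 4.26 with shM14, a ratio of 15.5. LSP1 passed the floor in MM6 through the shM14 group alone, so its choice as a gene described required the groups of MM6 to be unequal. The difference was 2.92 (95% interval 2.63 to 3.22, limma adjusted p = 0.0011). SEMA4A, a semaphorin of immune cells, was at 5.77 and 5.84 RPKM in NB4 with shNS and at 2.93 and 2.83 with shM14. It was at 8.09 and 8.69 with shNS and 18.4 and 17.9 with shM14 in MM6. The groups were apart in both lines, in opposite directions, and the difference was 1.84 (limma adjusted p = 0.0023).

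Further genes had this pattern. CSF3R, the receptor of granulocyte colony-stimulating factor, was at 15.2 and 14.4 RPKM in NB4 with shNS and 7.38 and 7.25 with shM14, and at 5.59 and 5.49 with shNS and 8.51 and 8.67 with shM14 in MM6. Its 4 MM6 values were as close within hairpins as those of NB4, and the groups did not overlap (difference 1.48, limma adjusted p = 0.0035). IL6R, a receptor chain for interleukin-6, was at 9.07 and 9.77 RPKM in NB4 controls and 5.04 and 5.43 with shM14, against 10.3 and 14.3 with shNS and 19.8 and 20.7 with shM14 in MM6. The MM6 controls were further apart than those of NB4, and the groups did not overlap in either line (difference 1.43). CD9, a tetraspanin membrane protein, was at 36.6 and 33.5 RPKM in NB4 with shNS and 25.02 and 23.9 with shM14. In MM6 it was at 4.06 and 2.98 with shNS and 8.72 and 8.01 with shM14, below the NB4 level in each library and with no overlap between hairpins (difference 1.56). SYTL1, a vesicle traffic protein that binds RAB27, differed by 1.45 and the choline transporter SLC44A2 by 1.196, both in this direction and without overlap. ALDH2, the mitochondrial aldehyde dehydrogenase, was at 16.6 and 16.98 RPKM in NB4 with shNS and 8.15 and 8.88 with shM14, and at 80.97 and 79.7 with shNS and 125 and 104 with shM14 in MM6. It was lower in both NB4 shM14 libraries and higher in both of MM6 (difference 1.40).

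In a further set the change lay mainly in MM6. CD300A, an inhibitory receptor of myeloid cells, was at 3.30 and 4.48 RPKM in MM6 with shNS and 14.4 and 14.8 with shM14, and in NB4 at 13.5 and 13.4 with shNS and 13.7 and 14.4 with shM14. The MM6 shM14 libraries reached the level that all 4 NB4 libraries had (difference 1.63, limma adjusted p = 0.012). LILRA2, an activating leukocyte receptor, was at 2.17 and 2.16 RPKM in MM6 controls and 7.72 and 7.29 with shM14. In NB4 it was at 2.06 and 2.24 with shNS and 1.63 and 1.87 with shM14, with a small change of -0.20. Both shM14 libraries of MM6 stood above the other 6. PRAM1, an adaptor named for its regulation by PML-RARA, was at 21.01 and 17.4 RPKM in MM6 with shNS and 49.3 and 46.5 with shM14, and in NB4 at 7.97 and 7.67 with shNS and 6.70 and 7.70 with shM14, where the groups overlapped (difference 1.39). In the remaining 2 of the 12 largest positive differences, NB4 fell and MM6 overlapped. COL6A1, a collagen chain, was at 8.93 and 9.31 RPKM in NB4 with shNS and 2.22 and 2.37 with shM14, and at 11.99 and 11.3 with shNS and 15.4 and 10.3 with shM14 in MM6 (difference 1.72). OAS3 is given with the interferon genes.

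**Figure D2:**
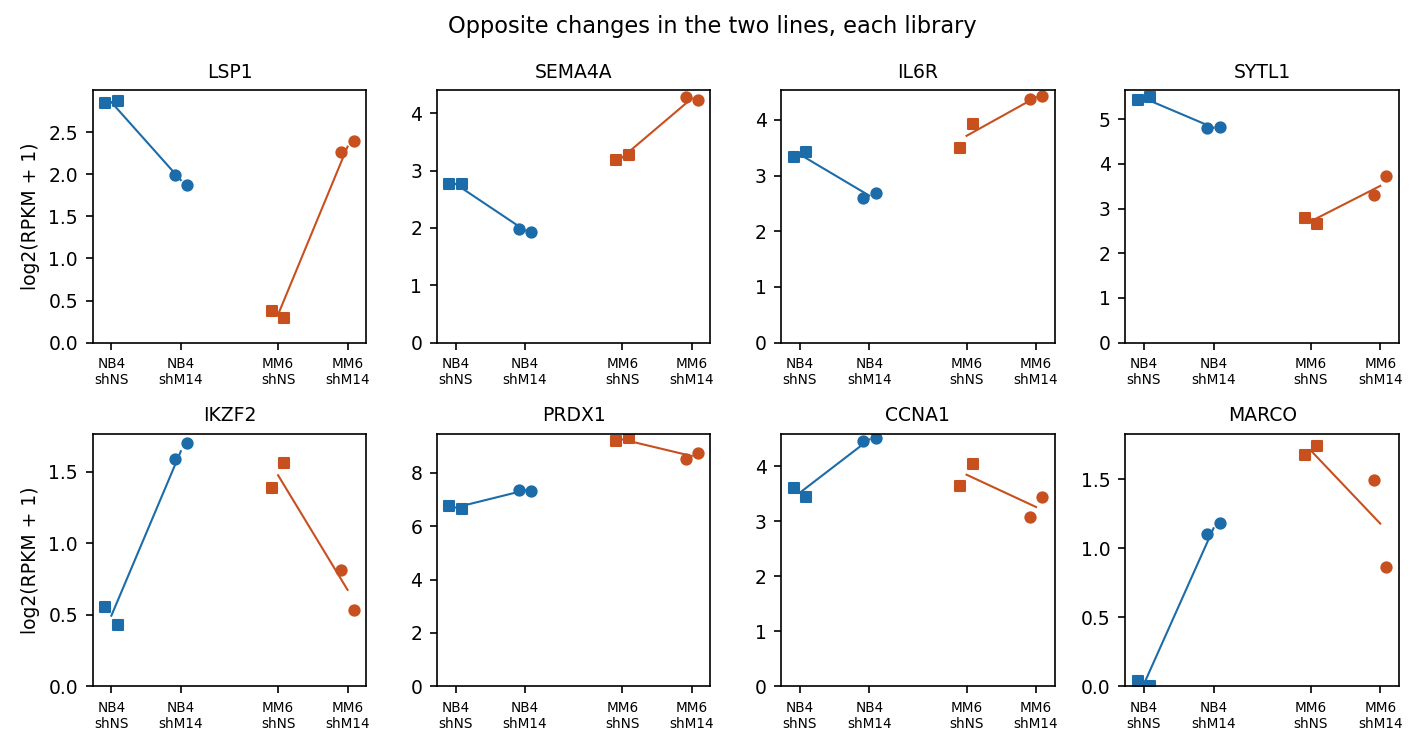
Level of 8 genes with opposite changes, log2(RPKM + 1), each library as a point (squares shNS, circles shM14), with a line between group means. LSP1, SEMA4A, IL6R and SYTL1 are lower in NB4 and higher in MM6 with shM14, and IKZF2, PRDX1, CCNA1 and MARCO the reverse.

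Among the genes higher in NB4 and lower in MM6, IKZF2, the lymphoid transcription factor Helios, was at 0.470 and 0.347 RPKM in NB4 with shNS and 2.001 and 2.25 with shM14. It was at 1.61 and 1.95 with shNS and 0.757 and 0.446 with shM14 in MM6. Levels were low throughout, and in each line only the higher group was over the floor, so that the choice of genes favours this pattern (difference -1.95, 95% interval -2.36 to -1.54, limma adjusted p = 0.0078). PRDX1, a peroxide-reducing enzyme and the most abundant of this set, was at 107 and 99.5 RPKM in NB4 with shNS and 164 and 161 with shM14, and at 583 and 642 with shNS and 367 and 429 with shM14 in MM6. The groups were apart in both lines (difference -1.27, limma adjusted p = 0.013). CCNA1, the cyclin A1 of germ cells and myeloid leukaemia, was at 11.2 and 9.85 RPKM in NB4 controls and 21.1 and 21.9 with shM14, against 11.6 and 15.5 with shNS and 7.48 and 9.84 with shM14 in MM6. Its groups did not overlap in either line (difference -1.56). MARCO, a scavenger receptor of macrophages, was nearly absent in NB4 controls (0.0233 and 0 RPKM) and at 1.15 and 1.27 with shM14. In MM6 it was at 2.20 and 2.34 with shNS and 1.81 and 0.819 with shM14, with the shM14 libraries unlike each other (difference -1.66). MARCO passed the floor in NB4 through the shM14 group alone. TNFSF10, the death ligand TRAIL, was at 17.6 and 16.1 RPKM in NB4 with shNS and 23.01 and 22.8 with shM14, and at 14.5 and 14.02 with shNS and 8.18 and 5.31 with shM14 in MM6. GNA15, a G protein subunit, and UBASH3B, a phosphatase of lymphoid and myeloid signalling, behaved the same way, with differences of -1.28 and -1.11.

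Several of the largest negative differences were large increases in NB4 that were small or absent in MM6. ICAM1, the adhesion ligand of leukocyte integrins, was at 36.1 and 35.5 RPKM in NB4 with shNS and 165 and 167 with shM14, and at 30.6 and 23.7 with shNS and 36.9 and 29.1 with shM14 in MM6. The MM6 groups overlapped, and the difference was -1.91 (95% interval -2.41 to -1.40, limma adjusted p = 0.012). PTAFR, the receptor of platelet-activating factor, was at 2.45 and 2.68 RPKM in NB4 controls and 11.3 and 11.8 with shM14, against 1.89 and 1.40 with shNS and 2.79 and 2.10 with shM14 in MM6 (difference -1.43). MS4A7, a membrane protein of monocytes, was at 4.64 and 4.36 RPKM with shNS and 12.3 and 13.96 with shM14 in NB4 and at 57.4 and 68.9 with shNS and 56.1 and 61.1 with shM14 in MM6, where it was already high (difference -1.46). RAB31, a GTPase of vesicle traffic, and KCNH2, a potassium channel, differed by -1.43 and -1.44, and their MM6 groups overlapped. RAB31 lost its call under 5 of 8 other settings. So did the collagen gene COL4A2 (-1.40), whose change lay mainly in MM6 (-1.24, against 0.16 in NB4). INHBA, a subunit of activin, differed in size and not in direction. It was at 2.49 and 2.27 RPKM in NB4 with shNS and 1.26 and 1.33 with shM14, and at 22.6 and 23.9 with shNS and 4.46 and 3.63 with shM14 in MM6. INHBA was lower with shM14 in both lines, with a change of -0.55 in NB4 and -2.27 in MM6 (limma adjusted p of the difference = 0.0065).

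Genes of protein folding in the endoplasmic reticulum differed in 1 direction. Of 26 genes, 6 passed with a lower change in MM6 and 0 with a higher one (0 higher at an unadjusted p under 0.05 and by voom). Over all tested genes 1.39% passed lower and 1.53% higher, which is also the background for the lists below. The difference was below 0 in 25, and the median was -0.47, beside -0.03 over all genes described and -0.02 over all tested. The median change was 0.23 in NB4 and -0.06 in MM6. In 16 of 26 the ranges of the 4 library pairs of each line did not overlap, all lower in MM6, against 20.1% of tested genes. Chaperones (11 genes, median -0.62) and the disulfide-forming oxidoreductases (5 genes, median -0.72) lay further down than the sensors and degradation factors (10 genes, median -0.18).

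HYOU1, a chaperone of the HSP70 family in this compartment, was at 40.6 and 45.3 RPKM in NB4 with shNS and 74.8 and 75.1 with shM14, and at 90.8 and 95.8 with shNS and 73.1 and 81.6 with shM14 in MM6. The groups were apart in both lines, in opposite directions (difference -1.06, limma adjusted p = 0.017). PDIA4, a disulfide isomerase, was at 89.1 and 94.4 RPKM with shNS and 178 and 175 with shM14 in NB4 and at 112 and 121 with shNS and 111 and 125 with shM14 in MM6, where the groups overlapped. PDIA3 and PDIA6, of the same family, differed by -0.72 and -0.72. XBP1, a transcription factor of the unfolded protein response, had its change in MM6, at 166 and 164 RPKM with shNS and 104 and 103 with shM14, against 52.3 and 54.2 with shNS and 50.6 and 51.3 with shM14 in NB4 (difference -0.61, limma adjusted p = 0.032). DNAJB9, a cochaperone, also passed, at -0.64. HSPA5, the main chaperone of the compartment, missed the threshold, at 89.9 and 95.3 RPKM with shNS and 131 and 131 with shM14 in NB4 and 249 and 276 with shNS and 249.8 and 234 with shM14 in MM6 (difference -0.62, limma adjusted p = 0.054). With weights for the spread of each line 3 of the 26 genes passed, with a pseudocount of 0.1 only HYOU1 and PDIA4 did, and by voom 8 did, DNAJB9 not among them.

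**Figure D3:**
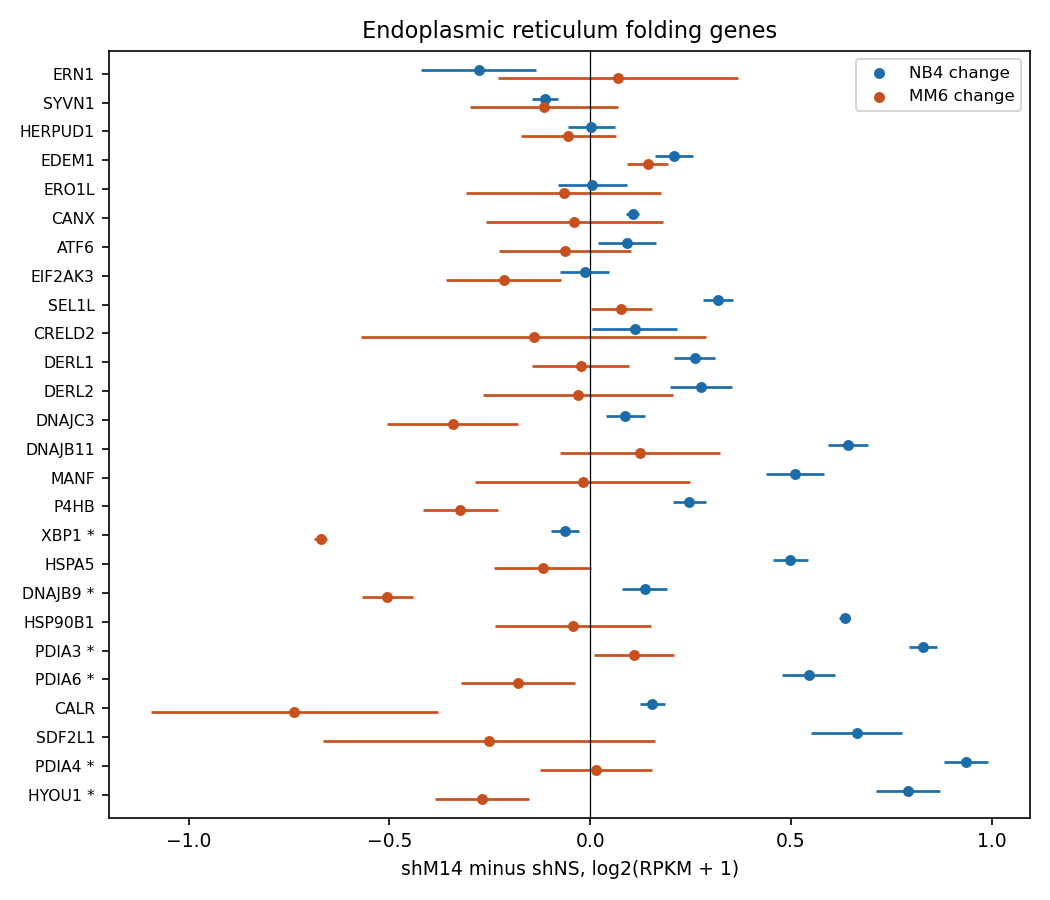
Change with shM14 in NB4 (blue) and MM6 (orange) for 26 endoplasmic reticulum folding genes, log2(RPKM + 1), as the mean and the range of the 4 library pairs, ordered by the difference. Stars mark the 6 genes that passed, and HYOU1 and PDIA4 at the bottom had the largest differences.

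The endoplasmic reticulum stress element, written as CCAAT, any 9 bases and CCACG, was searched on both strands to show what these promoters share. Counts cover the 250 bases before the start of each gene and a short stretch past it. The bases shown end at the start. The element contains the CCAAT box, and 24 of the 26 genes had a promoter in the RefSeq table (GRCh38.p14). It occurred in 6 of the 24 (25%), against 22 of 27305 promoters (0.0806%), and the 6 were XBP1, HSPA5, HSP90B1, CALR, CRELD2 and CANX. Of these, XBP1 passed the test. The promoters of XBP1 (chr22:28800570-28800819, minus strand), HSPA5 (chr9:125241344-125241593, minus strand) and HSP90B1 (chr12:103930160-103930409, plus strand) are shown with the element in capitals, since these hold it at 52, 66 and 194 and 89 bases before the start.
XBP1: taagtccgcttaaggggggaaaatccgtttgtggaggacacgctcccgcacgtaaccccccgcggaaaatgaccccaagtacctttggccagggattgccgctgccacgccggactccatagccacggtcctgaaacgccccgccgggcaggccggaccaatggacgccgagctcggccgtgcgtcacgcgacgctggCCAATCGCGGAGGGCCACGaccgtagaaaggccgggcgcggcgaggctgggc
HSPA5: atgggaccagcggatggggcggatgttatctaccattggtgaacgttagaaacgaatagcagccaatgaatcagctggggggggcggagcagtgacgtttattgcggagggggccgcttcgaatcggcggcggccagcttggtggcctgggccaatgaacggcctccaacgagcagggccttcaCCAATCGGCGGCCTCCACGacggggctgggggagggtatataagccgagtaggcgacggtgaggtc
HSP90B1: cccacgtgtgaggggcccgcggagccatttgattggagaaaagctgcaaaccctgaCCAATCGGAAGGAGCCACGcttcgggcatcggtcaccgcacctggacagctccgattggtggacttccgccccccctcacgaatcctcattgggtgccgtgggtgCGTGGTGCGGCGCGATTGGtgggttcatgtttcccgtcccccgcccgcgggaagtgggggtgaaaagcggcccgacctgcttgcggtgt

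Of 39 genes of cholesterol and fatty acid synthesis and transport, 34 had a difference below 0 and 3 passed, 1 higher and 2 lower in MM6. The median difference was -0.65, with a median change of 0.21 in NB4 and -0.35 in MM6. Without the second MM6 shM14 library it was -1.02, and without the first it was -0.32. The 26 synthesis enzymes had a median of -0.75 and 1 call, FADS1, a desaturase of fatty acids. FADS1 was at 36.04 and 34.2 RPKM in NB4 with shNS and 66.1 and 67.4 with shM14, and at 69.6 and 74.6 with shNS and 44.2 and 61.4 with shM14 in MM6. It was higher in both NB4 shM14 libraries and lower in both of MM6 (difference -1.37, limma adjusted p = 0.029). INSIG1, which holds back sterol synthesis, was at 90.8 and 89.6 RPKM with shNS and 167 and 164 with shM14 in NB4 and 47.3 and 59.2 with shNS and 24.4 and 44.1 with shM14 in MM6, and missed the threshold (difference -1.54, limma adjusted p = 0.074). The desaturase SCD (-1.30) also missed it, with a wide range between MM6 library pairs. NPC1, which moves cholesterol out of lysosomes, passed (difference -1.13, limma adjusted p = 0.012). It was lower with shM14 in both lines without overlap, with a change of -1.33 in MM6 and -0.20 in NB4. In MM6 it was at 37.05 and 34.7 RPKM with shNS and 14.2 and 13.1 with shM14. In NB4 it was at 8.33 and 9.12 with shNS and 7.57 and 7.34 with shM14. APOE, a lipid carrier protein, was the gene with a higher change in MM6, at 285 and 244 RPKM with shNS and 475 and 352 with shM14 there and 1.21 and 1.31 with shNS and 0.419 and 0.647 with shM14 in NB4 (difference 1.195). Its call was lost under 5 of 8 other settings. The sterol regulatory element, written as ATCAC followed by CCCAC and searched on both strands of the same windows, occurred in 1 of the 32 genes of this list with a promoter in the table (3.12%), against 0.0476% of all promoters. That gene was SREBF2, a transcription factor of sterol synthesis, which did not pass (difference -0.29).

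**Figure D4:**
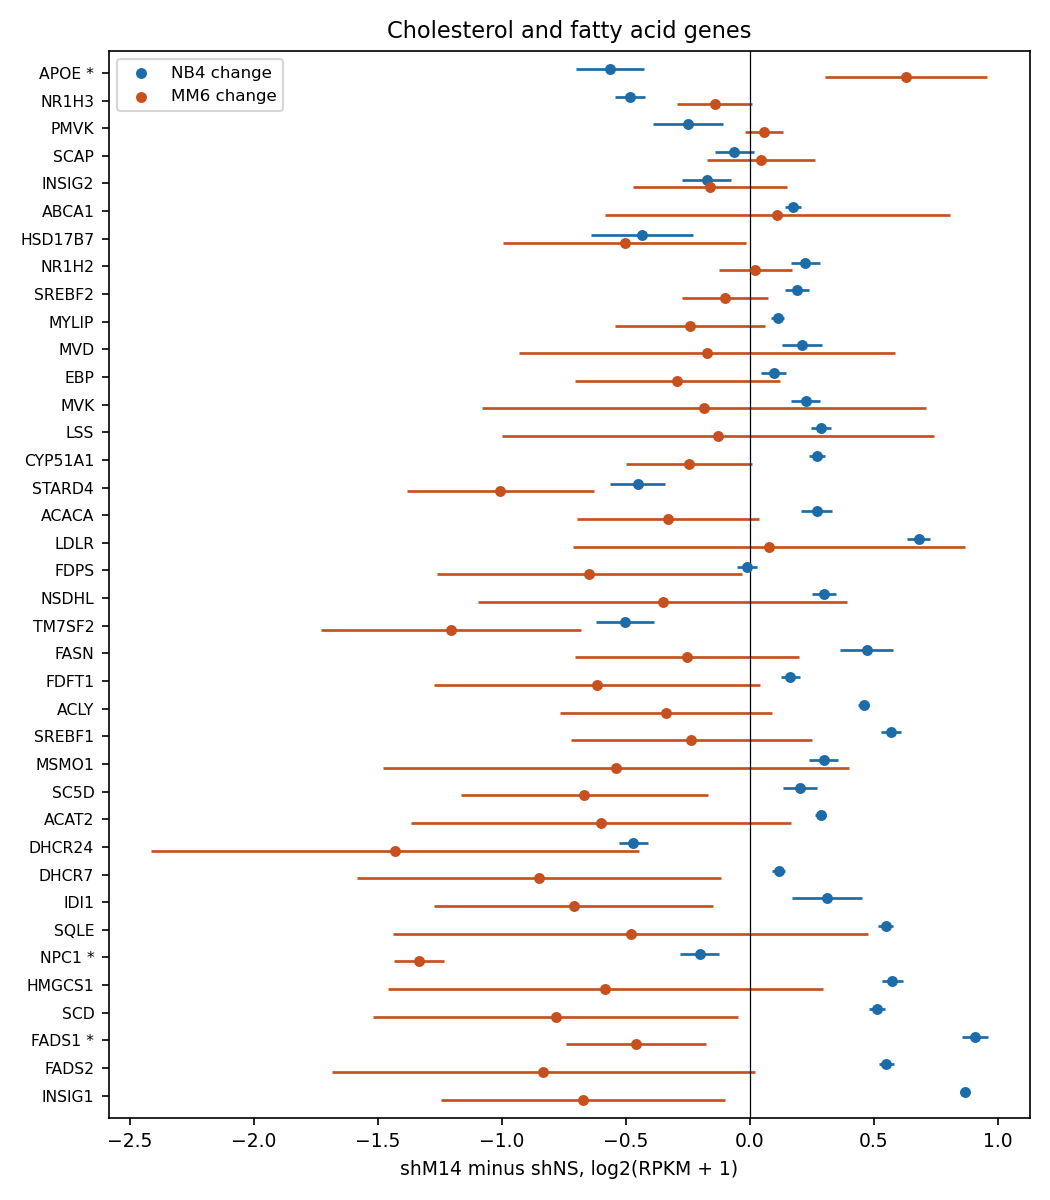
Change with shM14 in NB4 (blue) and MM6 (orange) for 38 genes of cholesterol and fatty acid metabolism, log2(RPKM + 1), as the mean and the range of the 4 library pairs, ordered by the difference. Stars mark the 3 genes that passed. The MM6 ranges are wider than those of NB4, and 33 of the genes plotted lie lower in MM6.

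Interferon response genes had a median change of -1.21 in NB4 and -0.71 in MM6 over 51 genes, and none of them passed the test of the change within MM6 alone. The median difference was 0.41, with 38 genes above 0, and it ran from 0.17 to 0.72 when 1 library was left out, at its lowest without the first MM6 shNS library and at its highest without the second. The 36 effector genes had a median of 0.59 and the 10 signalling genes -0.09. Only OAS3 and IFIT2 passed, both higher in MM6, and 0 genes passed lower (1 lower at an unadjusted p under 0.05, 0 by voom). OAS3, which makes the activator of RNase L, was at 113 and 116 RPKM in NB4 with shNS and 22.1 and 21.5 with shM14, and at 13.6 and 22.2 with shNS and 15.9 and 11.02 with shM14 in MM6. The change in NB4 was -2.34, while the MM6 groups overlapped (difference 1.97, limma adjusted p = 0.035). IFIT2, which binds foreign RNA, was at 64.8 and 61.4 RPKM with shNS and 14.4 and 14.8 with shM14 in NB4 and 16.9 and 13.3 with shNS and 9.68 and 6.90 with shM14 in MM6. Its shM14 libraries lay below the controls without overlap in both lines, and the difference was 1.23. The call of IFIT2 was lost with a pseudocount of 0.1, with no filter and with median-of-ratios scaling, and that of OAS3 with the pseudocount.

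The core of the interferon-stimulated response element was written as GAAA, any 2 bases and GAAA on either strand. It occurred in 22 of the 39 interferon genes with a promoter in the table (56.4%), against 3.65% of all promoters. Matches in the stretch past the start were counted here too, while the bases shown end at the start. OAS3 held it at 143 and 12 bases before the start, and its promoter (chr12:112938224-112938473, plus strand) is shown with the core in capitals as the interferon gene with the largest difference. Matches of this core can overlap each other, as in HERC5.
OAS3: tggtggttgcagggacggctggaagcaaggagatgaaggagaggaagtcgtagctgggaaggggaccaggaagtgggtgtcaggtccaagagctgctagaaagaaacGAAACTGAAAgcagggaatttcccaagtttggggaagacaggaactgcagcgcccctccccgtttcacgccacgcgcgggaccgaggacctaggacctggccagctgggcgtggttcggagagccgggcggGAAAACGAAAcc

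Cytosolic ribosomal protein genes had small differences of nearly uniform sign. Of 77 genes, 76 had a difference above 0 (median 0.25), with a median change of -0.24 in NB4 and 0.03 in MM6. The range of library pairs was apart in 54, 53 of them higher in MM6, against 17% of tested genes. RPL13A, of the large subunit, was the only gene to pass, at 353 and 373 RPKM with shNS and 294 and 287 with shM14 in NB4 and 138 and 123 with shNS and 162 and 162 with shM14 in MM6 (difference 0.63, limma adjusted p = 0.048). The shM14 libraries were below the controls in NB4 and above them in MM6, and the call was lost under 3 of 8 other settings. Ribosomal protein genes have many near-identical pseudogenes, so how reads were shared between copies is uncertain. Glycolysis and hypoxia genes had the same sign, with 25 of 31 above 0 and a median of 0.28. VEGFA, the angiogenic growth factor, passed, at 26.98 and 26.4 RPKM with shNS and 23.4 and 23.4 with shM14 in NB4 and 6.90 and 7.49 with shNS and 12.5 and 11.1 with shM14 in MM6 (difference 0.83, limma adjusted p = 0.027). The glycolytic enzyme PGK1 missed the threshold (0.62, limma adjusted p = 0.07).

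Granule and monocyte genes split within their lists. Of 16 promyelocyte granule genes, SERPINB1, an inhibitor of neutrophil proteases, and CEBPE, a factor of late granulocyte maturation, passed higher in MM6 (0.95 and 0.98). The background was 1.53% of tested genes higher and 1.39% lower. PRTN3 and PRSS57, both serine proteases of granules, and the ribonuclease RNASE2 passed lower (-1.11, -1.09 and -1.01). PRTN3 was at 46.1 and 44.1 RPKM in NB4 with shNS and 127 and 129 with shM14, and at 889 and 903 with shNS and 1217 and 1114 with shM14 in MM6. It was higher with shM14 in both lines from very different levels. Of 28 monocyte and macrophage genes only TLR2, a sensor of bacterial lipoproteins, passed (-0.71), and their median of 0.24 ran from -0.03 to 0.38 as libraries were left out. The summed monocyte markers given above were higher with shM14 in NB4 and overlapped between hairpins in MM6, and their part in these results was not tested. Of NF-kB and inflammation genes, LTA4H, an enzyme of leukotriene B4 synthesis, and the chemokine CXCL16 passed higher in MM6 (0.98 and 0.92). ICAM1, given above, passed lower.

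In the matrix, integrin and activin list of 29 genes, 6 passed, 2 higher and 4 lower in MM6, against 1.53% of tested genes higher and 1.39% lower. TGFBR2, a receptor of TGF-beta, was higher (0.60) and TGFBR1, its partner receptor, lower (-0.90). TGFBR1 was at 20.9 and 19.8 RPKM with shNS and 27.5 and 26.8 with shM14 in NB4 and 56.9 and 57.3 with shNS and 38.2 and 42.1 with shM14 in MM6. The groups were apart in both lines. SPARC, a matrix protein, differed by 1.04, the protease PLAU by -1.11 and the integrin subunit ITGA4 by -0.84, INHBA being the fourth lower gene. Immediate early and ERK feedback genes had a median of 0.02, and it ran from -0.88 without the second MM6 control to 0.85 without the first. DUSP1, a phosphatase of that list, was at 111 and 7.19 RPKM in MM6 with shNS and 200.1 and 12.6 with shM14, so that the replicates differed more than the hairpins.

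**Figure D5:**
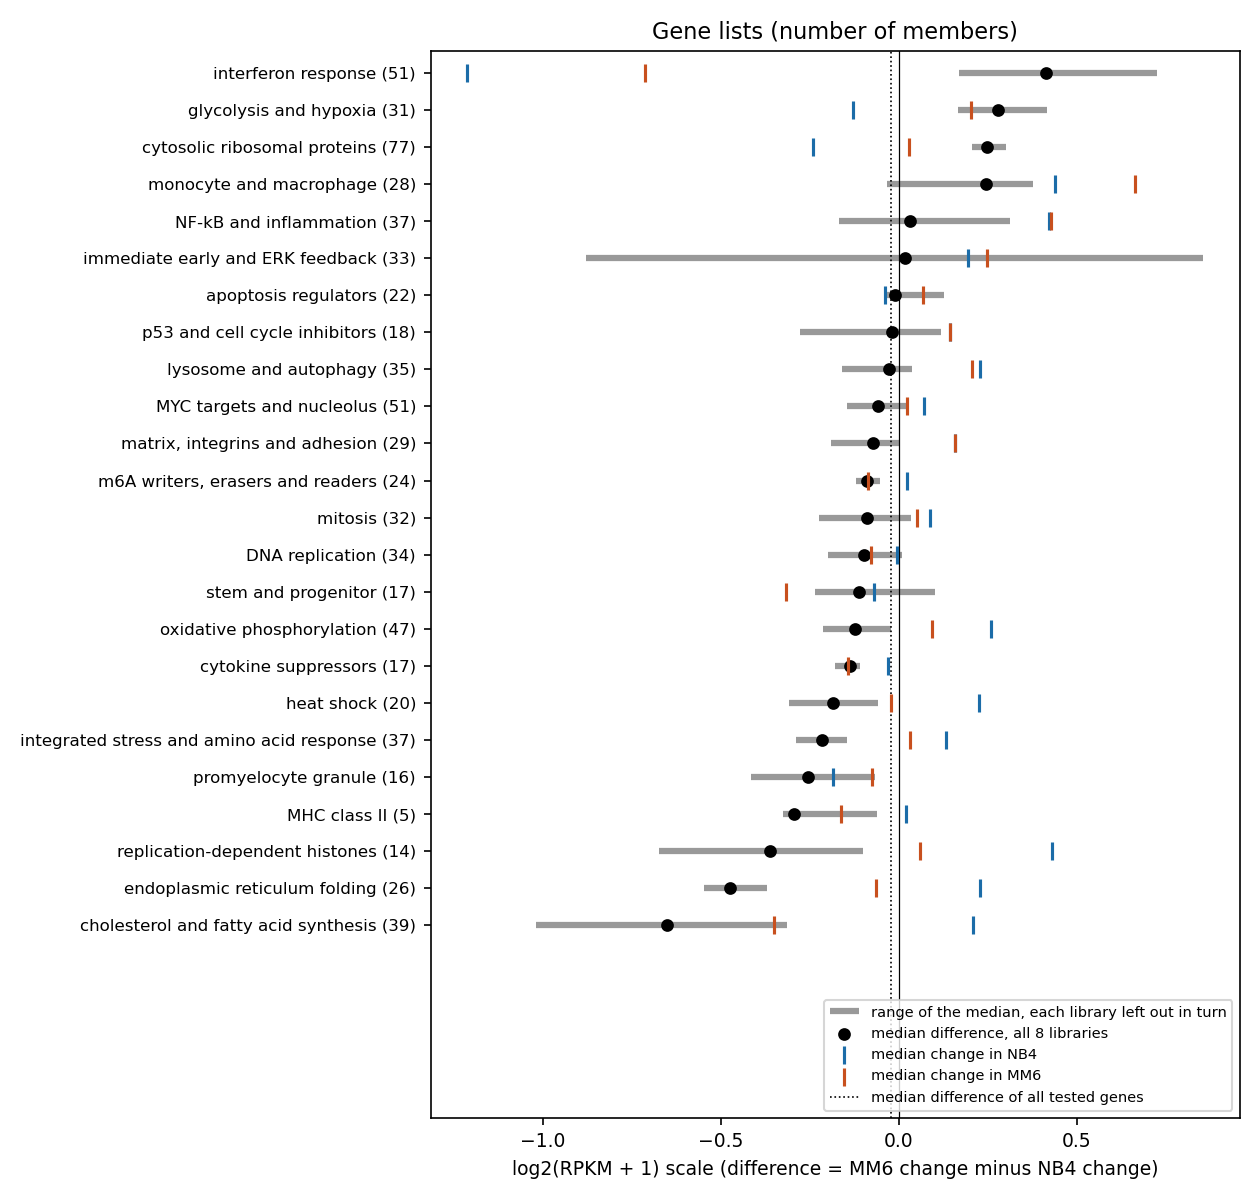
Median difference (black) for 24 gene lists, with the range of the median as each library is left out (grey bar), the median change in each line (ticks) and the median difference of all tested genes (dotted line), on the log2(RPKM + 1) scale. Cholesterol and endoplasmic reticulum folding lie lowest, interferon highest, and the bar of the immediate early list spans -0.88 to 0.85.

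Other lists held few calls. In the amino acid and integrated stress list, DDIT4, an inhibitor of mTORC1 signalling, and PSPH, of serine synthesis, passed lower (-0.91 and -0.56). LAMP1, a lysosomal membrane protein, passed lower (-0.69), as did the cochaperone DNAJB6 (-0.55) and SOCS1, which damps cytokine signalling (-0.998). BIK, a promoter of cell death, and IER5 passed higher (1.002 and 0.81). DNA replication, mitosis, MYC and nucleolus, p53, oxidative phosphorylation, histone and MHC class II lists had no call by limma or voom. At an unadjusted p under 0.05, the oxidative phosphorylation list had 1 gene higher and 7 lower in MM6, mitosis 0 and 1, DNA replication 1 and 4, MYC and nucleolus 3 and 4, p53 2 and 0, histones 0 and 2, and MHC class II 1 and 1.

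Besides those already given, the calls lost with a pseudocount of 0.1 were those of KCNH2, TNFSF10, UBASH3B, TLR2, CEBPE, RNASE2, IER5, RPL13A, DDIT4, PSPH, DNAJB6, LAMP1, SOCS1, ITGA4, TGFBR2 and PLAU. With weights by line, the calls of TLR2, CEBPE, RNASE2, IER5, RPL13A, PSPH, DNAJB6, LAMP1, SOCS1 and TGFBR2 were lost. By voom, those of CEBPE, CXCL16, PSPH, DNAJB9, BIK, SOCS1 and PLAU were lost. With median-of-ratios scaling, those of CXCL16, RPL13A, DNAJB6 and PLAU were lost, and with no filter that of SOCS1. Under the stricter filter IKZF2, MARCO and CXCL16 were not tested. All of them kept their direction.

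Agreement between lines was also measured. In 2875 of the genes described the hairpin groups did not overlap in either line and the changes had the same sign, against 25.4% of tested genes. In 1432 of them the 95% interval of the difference lay within 0.5 of 0, 704 with higher and 728 with lower levels with shM14. CD48, an immune adhesion receptor, was at 8.73 and 9.18 RPKM with shNS and 21.05 and 20.04 with shM14 in NB4 and 3.82 and 3.27 with shNS and 9.89 and 8.58 with shM14 in MM6, with changes of 1.11 and 1.17. HOXA10, a homeobox factor of immature blood cells, was at 11.02 and 10.4 RPKM with shNS and 5.49 and 4.97 with shM14 in NB4 and 9.98 and 9.67 with shNS and 3.79 and 4.53 with shM14 in MM6. Both groups of each gene were apart in both lines, and the changes of HOXA10 were -0.91 and -1.07.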

How the data were processed

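Poly(A) RNA of 8 libraries was measured, per the labels. The authors deposited, for each line, RPKM per library, which depends on that library alone, group means of reads over size factors (signal), a fold change (ratio) with its log2, and p-values. RPKM was read as the unit from the deposited values. For the aligner, counter, genome build and strand setting, nothing is stated in the labels or headers. The authors' ratios, log2 fold changes and p-values were not used. RPKM and group means resolved into whole reads for 100% of values (tolerance 0.01), which gave the depth.

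Genes at 1 RPKM or more in at least 2 libraries were tested, 12804 in all. log2(RPKM + 1) of all 8 libraries was modelled by limma (version 3.58.1, R 4.3.3, empirical Bayes) with the interaction of line and hairpin, and p-values were adjusted over all tested genes at 0.05. This scale understates the changes of low genes. Each line was also fitted alone. On simulated data with 12804 genes the interaction test recovered 60% of genes changed by 1 log2 and 91% of those changed by 2, with 10 false calls (6.21% of calls). The simulation gave each gene the same spread in both lines and independent libraries. In these data MM6 had the wider spread and its same-numbered libraries deviated together, so the simulated rates need not hold for them. Intervals are 95%. Changes were taken within each line's table. Promoters are from RefSeq, and 8546 genes described matched. The members and lists were chosen with earlier results of these data known. Genes named are METTL14, the 12 largest differences in each direction among those past the threshold with 5 RPKM in a group, the 8 with the largest opposite changes in each direction, and up to 6 per list by p. FOS, DUSP1 and the markers were named for the libraries that stand apart, and CD48, HOXA10, HSPA5, APP and PTGDS after their values were seen. CALR, CANX, CRELD2, HERC5, HSP90B1 and SREBF2 were named for motif matches, and CBWD6 and PRR7-AS1 for the floor. Alternatives were another pseudocount, other filters, a replicate block, median-of-ratios scaling, weights by line, a variance trend, voom on recovered reads, and leaving out each library. Overlapping, antisense and near-identical genes are uncertain. Python 3.11.15 made summaries and figures (matplotlib 3.10.9). Of the cholesterol list, 1 gene is counted but not reported singly or plotted here.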

Additional observations from a re-analysis of the deposited data

Results flagged for a closer look

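The 2 counts stand out because the test is of the difference between lines itself: 114 genes had a higher and 110 a lower change in MM6 than in NB4. The same test marks each named gene that passed, given here as the difference of changes on log2(RPKM + 1). Genes with a higher change in MM6 had differences of 2.92 for LSP1, 1.97 for OAS3, 1.84 for SEMA4A, 1.72 for COL6A1, 1.63 for CD300A, 1.62 for LILRA2, 1.56 for CD9 and 1.48 for CSF3R. Further positive differences were 1.45 for SYTL1, 1.43 for IL6R, 1.40 for ALDH2, 1.39 for PRAM1, 1.195 for APOE, 1.196 for SLC44A2, 1.23 for IFIT2 and 0.95 for SERPINB1. Smaller or list-based positive values were 0.98 for CEBPE, 0.98 for LTA4H, 0.92 for CXCL16, 0.81 for IER5, 0.63 for RPL13A, 0.83 for VEGFA, 1.002 for BIK and 1.04 for SPARC. The last positive value was 0.60 for TGFBR2. Genes with a lower change in MM6 had differences of -1.91 for ICAM1, -1.71 for INHBA, -1.56 for CCNA1, -1.46 for MS4A7, -1.44 for KCNH2, -1.43 for PTAFR, -1.43 for RAB31 and -1.42 for TNFSF10. Negative differences followed with -1.40 for COL4A2, -1.37 for FADS1, -1.28 for GNA15, -1.27 for PRDX1, -1.95 for IKZF2, -1.66 for MARCO, -1.11 for UBASH3B and -1.13 for NPC1. List members gave -0.71 for TLR2, -1.11 for PRTN3, -1.09 for PRSS57, -1.01 for RNASE2, -0.91 for DDIT4, -0.56 for PSPH, -1.06 for HYOU1 and -0.92 for PDIA4. Remaining values were -0.72 for PDIA3, -0.61 for XBP1, -0.64 for DNAJB9, -0.72 for PDIA6, -0.55 for DNAJB6, -0.69 for LAMP1, -0.998 for SOCS1 and -0.90 for TGFBR1. The last were -0.84 for ITGA4 and -1.11 for PLAU. Each is tested on the same 8 libraries, so these values are not independent of each other.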

How the results depend on the processing

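The counts of 114 genes higher and 110 lower in MM6 stayed within 1.5 times under no filter, a stricter filter, median-of-ratios scaling, weights by line, a variance trend and voom. A pseudocount of 0.1 gave 70 and 52. Leaving out 1 library at a time gave 2 to 220 higher and 0 to 300 lower, lowest without an NB4 library (1045 to 1258 genes then had an unadjusted p under 0.05). The calls that remained without an NB4 library were LSP1 and SEMA4A, with CSF3R or LILRA2 in 1 fit each. Within NB4 the 5013 calls ran from 2731 to 4310 with 1 library left out. Within MM6 the 4 calls ran from 0 to 19 (817 to 1587 genes at an unadjusted p under 0.05), and median-of-ratios scaling left 1. The cause was not tested. With the replicate number as a replicate block, 399 genes were higher and 410 lower, all 224 calls included, and 1107 passed in MM6. The labels do not say that a number pairs libraries, and same-numbered libraries deviated together in MM6 (r = 0.69) and hardly in NB4 (r = 0.07). No named gene that passed reversed its direction under any of these settings. Each group has 2 libraries, which limits the precision.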

Other observations

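A few genes with high levels in MM6 differed between NB4 libraries by replicate number. ELANE, neutrophil elastase, was at 0.0462 and 6.83 RPKM in the NB4 shNS libraries and 0.0387 and 6.45 in those with shM14, and at 1599 to 2410 in MM6. APP, the amyloid precursor, was at 0.0106 and 0.657 RPKM with shNS and 0 and 0.401 with shM14 in NB4 and 161.3 to 183.8 in MM6. Both were higher in the second NB4 library of each hairpin. VCAN, a proteoglycan of monocytes, was at 0.0103 and 0.0391 RPKM with shNS and 0.0317 and 0.0844 with shM14 in NB4 against 115.1 to 120.9 in MM6, and PTGDS was at 0 in all NB4 libraries against 64.4 to 138.4.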
